A study of Mus musculus with 19 samples.

Results

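L2 and MIR elements are among the oldest interspersed repeats still recognisable in the mouse genome. They were taken here as every row of the deposited repeat table whose class is LINE/L2 or SINE/MIR, which gave 99157 of 2634743 listed elements and 8 of 1234 repeat names. The L2 class held 37144 elements under the names L2 (10321), L2a (13189), L2b (7100) and L2c (6534). The MIR class held 62013 elements under the names MIR (20298), MIR3 (7899), MIRb (21847) and MIRc (11969). Reads were available for these elements in 6 strand-specific RNA-seq libraries, and CpG methylation in 6 whole genome bisulfite sequencing (WGBS) libraries.

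The study asked how closely cystic embryoid bodies (EBs), fluid-filled aggregates grown from mouse ES cells, resemble the endoderm of the visceral yolk sac (ysE). For RNA, the groups of 2 libraries each were cystic EBs of a C57Bl/6x129 ES cell clone (JN) after 10 and 15 days, ysE of FVB embryos at E9.25 and the mesoderm of the visceral yolk sac (VYS) of FVB embryos at E9.25. For DNA methylation, ysE and fetal liver were taken at E12.5 and cystic EBs at d15, with 1 library of the CastxFVB cross (CxF) and 1 of the reciprocal FVBxCast cross (FxC) per tissue. Cystic EBs were from CF clone C2 for CxF and FC clone A2 for FxC. H3K4me3 peaks came from 1 ChIP-seq library of whole VYS of FVB embryos at E12.5, pooled over litters, so that peaks and methylation were measured in different strains. Each embryonic sample was a pool of a whole litter, the yolk sac layers were separated by hand after dispase digestion, and the mesoderm was collected together with vessels and basement membrane. The EB RNA libraries were 2 days of 1 clone and were treated as replicates, so that clone, strain, culture and tissue cannot be told apart between EBs and embryo. Nothing in the labels ties equal library names of different tissues to 1 animal, and p-values measure only the spread between these libraries. With 2 libraries against 2, an exact permutation test could not go below 0.333, so that tests were fitted across all names or all elements.

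LINEs copy themselves through an RNA intermediate with their own reverse transcriptase, while SINEs carry no protein and use the machinery of a LINE. MIRs are SINEs with a tRNA-derived head and a tail shared with L2, and both families amplified before the placental mammals diverged and have long been immobile. Their copies are short and heavily mutated, they lie in introns and between genes, and some have been taken up as parts of enhancers or exons. An RNA-seq read in such a copy can therefore come from a longer transcript that runs through it. CpG methylation is the main DNA mark that silences repeats.

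The sequences below show what a member looks like where it meets a gene start. Of the 99157 elements, 473 overlapped a promoter window (250 bases before to 50 after the start of a RefSeq gene), and 278 CpGs lay inside both with enough sequence on each side. The 5 CpGs printed had at least 2 bisulfite reads in every tissue, 1 CpG per element. Each is given on the plus strand of GRCm38.p6 (RefSeq), 5′ to 3′, with the CpG in capitals.
MIRc near Gm26562, chr16:30206666-30206695: gcacacccgcccttCGcacttcatacagtt
MIRc near Gm31102, chr1:155243078-155243107: gagaaattacatcaCGtagatgccctgggg
L2b near Gm32164, chr7:90063320-90063349: agccaacatagtccCGggcacacagttgat
MIRb near Gm38388, chr1:60599601-60599630: ccaggcagagctacCGaagcattttcttgt
MIRb near Zbtb17, chr4:141444439-141444468: gaggagaaagaactCGgttgtatcgtgtga

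At the CpG near Gm26562, 5 of 5 reads were methylated in ysE, 6 of 6 in liver and 7 of 8 in EBs. The CpG near Gm31102 had 5 of 6 methylated reads in ysE, 7 of 7 in liver and 4 of 4 in EBs, and the one near Gm32164 had 4 of 4, 6 of 7 and 7 of 7. These 3 CpGs were mostly methylated in every tissue. The CpG near Gm38388 had 0 of 5 methylated reads in ysE, 0 of 2 in liver and 5 of 5 in EBs. Its ysE and liver reads all came from the FxC libraries, while EBs had 3 of 3 methylated reads in CxF and 2 of 2 in FxC. Within FxC the difference rests on these few reads. The CpG near Zbtb17, a gene for a zinc finger transcription factor, lies in an H3K4me3 peak of whole E12.5 VYS and had 0 of 3, 0 of 2 and 0 of 2. Its liver and EB reads all came from the CxF libraries. The few reads per CpG allow no test of a single site, so methylation was summed over the elements of a name.

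The members were short and weakly matched to their consensus. Their median length was 117 bp, from 95 bp for MIR3 to 158 bp for L2, against 161 bp over all elements outside RNA genes. Their median alignment score was 228 against 585. Of the members, 21.1% overlapped a RefSeq gene and 0.917% (909) overlapped an H3K4me3 peak, against 15.2% and 0.497% of all elements. At least 1 RNA-seq read was found in 70.1% of the members, from 69.1% for MIRb to 73.5% for L2, against 78.5% of all. The median member had 2 reads over the 6 libraries, and the 2343 members with more than 100 reads held 60.6% of all member reads.

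The RNA libraries held 86063967 to 188223399 reads in repeats, of which 65.9% to 79.4% lay in RNA-gene repeats. The members held 194964 to 466672 reads per library. Marker genes followed the labels. The summed RPKM of 8 ysE genes (8 of 8 found) was 11149 and 12461 in ysE, 1223 and 2165 in the mesoderm, and 165 and 545 in EBs. The summed RPKM of 8 mesoderm and vessel genes was 1292 and 1130 in the mesoderm, 33.2 and 51.7 in ysE, and 70.3 and 244 in EBs. That of 6 primitive erythroid genes was 43969 and 34280 in the mesoderm, and 63.0 to 1022 in the other libraries. That of 4 pluripotency genes was 177 and 114 in EBs, 5.62 and 4.99 in ysE, and 0.809 and 0.952 in the mesoderm. That of 4 hepatocyte genes was 285 and 343 in ysE and 7.02 to 33.4 in the other libraries, with Ahsg at 0 in mesoderm A. Fgb alone made up nearly all of that sum (284 and 342 in ysE), while Alb, Serpina1a and Ahsg were at 0.040 to 1.23 in ysE. ysE genes were present in the mesoderm and at low level in EBs, and the part of such mixing in the results below was not tested. In bulk samples such as these, fewer cells of a type and less RNA per cell cannot be told apart.

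Reads in L2 and MIR elements were most abundant in ysE. Members made up 1.21% and 1.20% of the reads outside RNA genes in ysE, against 0.733% and 0.791% in EBs and 0.838% and 0.880% in the mesoderm. The ysE libraries lay above the other 4. Set against gene expression, the members had 2553 and 2745 CPM (reads scaled to an equal number of RefSeq reads per library) in ysE, 2219 and 1835 in EBs, and 1820 and 1767 in the mesoderm. On this scale too the ysE libraries lay above the other 4.

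Levels are given below as CPM of repeat reads, after TMM scaling, per Mb of elements, so that names can be compared per length. Among the MIRs, MIR3 had 179 and 169 CPM per Mb in EBs at d10 and d15, 305 and 371 in ysE A and B, and 164 and 181 in mesoderm A and B. MIRc had 179 and 184 in EBs, 293 and 305 in ysE, and 188 and 193 in the mesoderm. MIR had 163 and 165 in EBs, 256 and 263 in ysE, and 168 and 175 in the mesoderm. In these 3 names both ysE libraries were well above all others, and EBs and mesoderm were close to each other.

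MIRb, the name with the most elements, had 144 and 145 CPM per Mb in EBs, 231 and 232 in ysE, and 143 and 152 in the mesoderm. L2b had 143 and 143 in EBs, 223 and 238 in ysE, and 154 and 147 in the mesoderm. L2c had 162 and 160.1 in EBs, 219 and 221 in ysE, and 152 and 156 in the mesoderm. Again the ysE libraries did not overlap with those of either other group.

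L2a had 126 and 134 CPM per Mb in EBs, 155 and 182 in ysE, and 138 and 128 in the mesoderm. L2 had 115 and 109.6 in EBs, 124 and 119.6 in ysE, and 104 and 106 in the mesoderm. The ysE libraries were the highest for both names, but by little. L2 had the lowest level per length of the 8 names in every library, and L2a the second lowest. Over all repeats outside RNA genes, levels were 325 and 303 CPM per Mb in EBs, 290 and 308 in ysE, and 287 and 279 in the mesoderm. The share of all names with ysE highest is not given here.

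**Figure D1:**
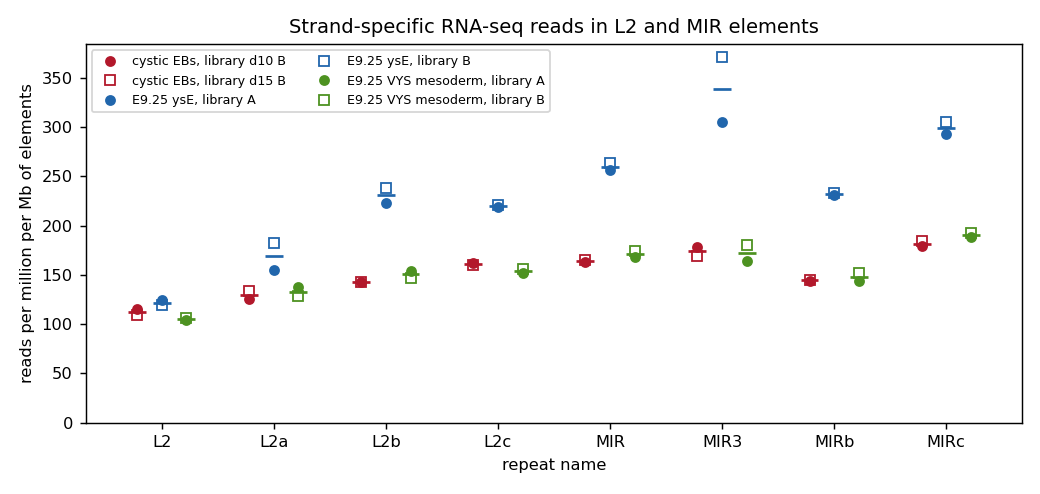
CPM per Mb of elements (vertical axis) for the 8 L2 and MIR names (horizontal axis) in each of 6 RNA-seq libraries; filled circles and open squares are the 2 libraries of a group. The ysE libraries are the highest for every name, from 124 and 119.6 for L2 to 305 and 371 for MIR3.

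Cystic EBs had fewer reads than ysE in 6 of the 8 names in edgeR's quasi-likelihood test at a false discovery rate (FDR) of 5%, and in none more. MIR3 fell most, by 0.96 on the log2 scale (SE 0.13, edgeR adjusted p = 0.0059). MIRc (-0.72, adjusted p = 0.0049), L2b (-0.69, adjusted p = 0.0064), MIRb (-0.68, adjusted p = 0.0058), MIR (-0.67, adjusted p = 0.0059) and L2c (-0.45, adjusted p = 0.017) were also lower in EBs. L2a (log2 -0.38, SE 0.12, adjusted p = 0.057) and L2 (log2 -0.12, SE 0.095, adjusted p = 0.35) did not pass. By DESeq2, L2a was also called lower in EBs (adjusted p = 0.021), and L2 was not (adjusted p = 0.28). Of all 1190 names tested, edgeR called 34%, 17.1% lower and 16.9% higher in EBs, and DESeq2 called 280 lower and 240 higher. The median log2 fold change by edgeR was 0.02 over all names, -0.41 over L2 names and -0.70 over MIR names.

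ysE had more reads than the mesoderm in 6 of 8 names by edgeR, again MIR3, MIRc, MIRb, MIR, L2b and L2c, and in none fewer. The log2 differences were 0.97 for MIR3 (SE 0.13, adjusted p = 0.013), 0.65 for MIRc and MIRb (both adjusted p = 0.014), 0.61 for L2b (adjusted p = 0.016), 0.60 for MIR (adjusted p = 0.015) and 0.51 for L2c (adjusted p = 0.022). L2a (log2 0.34, adjusted p = 0.094) and L2 (log2 0.22, adjusted p = 0.15) did not pass. By DESeq2 both were called (adjusted p = 0.035 for L2a and 0.041 for L2), which made 8 of 8 names. Of all 1190 names, DESeq2 called 227 higher and 166 lower in ysE. By edgeR, 20.3% of all names were called, 10.8% higher and 9.58% lower in ysE. The median log2 difference was -0.01 over all names, 0.43 over L2 names and 0.65 over MIR names. Both comparisons share the ysE libraries, so the second does not add independent support to the first.

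Between cystic EBs and the mesoderm, 0 of 8 names were called by edgeR, 0 had an unadjusted p under 0.05 and 0 were called by DESeq2. The log2 differences ran from -0.08 for L2b to 0.10 for L2, with standard errors of 0.092 to 0.13. Of all names, 3.03% were called by edgeR, and DESeq2 called 69 higher and 61 lower in EBs.

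Calls by name were lost when single libraries were left out, which leaves 1 group with a single library. How many calls all names lost in these fits is not given here, so a loss particular to the members cannot be told apart. The log2 differences kept their sign, with 0 of 48 results reversed between EBs and ysE and 0 of 48 between ysE and mesoderm. When libraries were scaled to RefSeq transcripts instead of repeats, 7 members were lower in EBs than in ysE and 6 were higher in ysE than in mesoderm. That scaling moved the median log2 fold change of all names to -0.23 between EBs and ysE, with 82 names higher and 270 lower against 201 and 204 before. Between ysE and mesoderm it moved the median to 0.25, with 177 names higher and 44 lower against 128 and 114.

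The other old classes had medians nearer to 0 or above it. Between EBs and ysE the median log2 fold change was 0.39 over 14 CR1 names (3 higher, 2 lower), -0.10 over 71 hAT-Charlie names (9 higher, 6 lower), 0.04 over 42 TcMar-Tigger names (4 higher, 4 lower) and 0.01 over 105 ERVL-MaLR names (21 higher, 22 lower). Among classes with young mouse members, 14 of 16 Alu names (median -0.79) and 5 of 5 B2 names (median -1.47) were lower in EBs, both of them SINEs like MIR. Of 132 L1 names, 38 were higher and 13 lower (median 0.08). These medians are descriptions, and differences between classes were not tested.

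A share of the member reads lay in elements with nearly the same read numbers as a neighbour. Of the members with at least 100 reads, 1303 (495 L2 and 808 MIR elements) had a neighbouring repeat with the same reads in all 6 libraries, within 2 reads plus 2%. They lay in 986 runs with a median of 2.67 kb and up to 40.4 kb. Whether a read that spans several elements was counted in each is not stated in the sources used here. These members held 18.7% and 19.4% of the member reads in EBs, 44.2% and 49.7% in ysE, and 27.6% and 29.0% in the mesoderm. The share was highest in ysE and the groups did not overlap. Over all repeats outside RNA genes, the shares were 7.46% and 9.0%, 18.9% and 21.5%, and 12.9% and 12.3%.

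Without these elements, which were set aside after the data were seen, the summed level of the members was 1603 and 1602 CPM in EBs, 1623 and 1542 in ysE, and 1443 and 1443 in the mesoderm, on the scale used above. On that scale the EB libraries lay between those of ysE. Matching was sought only among elements with at least 100 reads and took out a larger share of the ysE reads, so a smaller difference in the rest is partly fixed by this choice. When the remaining elements were refitted with new scaling factors, 6 of 8 names were again lower in EBs than in ysE, against 15.2% of all names. MIR3 was at -0.74 (adjusted p = 0.0035), MIRb at -0.53 (adjusted p = 0.012) and L2a at -0.38 (adjusted p = 0.040), while MIR (-0.30, adjusted p = 0.076) and L2 (-0.22, adjusted p = 0.11) did not pass. Between ysE and mesoderm, 6 names were higher in ysE after the refit, against 11.1% of all names, and MIR (0.32, adjusted p = 0.081) and L2 (0.29, adjusted p = 0.074) did not pass. How far members differ without matching neighbours thus depended on the scaling.

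The elements with at most 100 reads over the 6 libraries were also summed alone. This limit is set on the reads compared, so elements high in ysE, which includes the library with the most member reads, tend to exceed it and drop out, and a smaller or reversed difference in the rest is partly fixed by the choice. The elements summed to 1145 and 1084 CPM in EBs, 821 and 734 in ysE, and 945 and 959 in the mesoderm, so ysE was the lowest group on the scale of all repeats. Low-read elements of all classes outside RNA genes were also lowest in ysE, at 27840 and 26382 CPM against 39775 and 36517 in EBs and 36351 and 34899 in the mesoderm. After a refit by edgeR on such elements alone, 0 of 8 names were called between EBs and ysE (4 at an unadjusted p under 0.05, log2 -0.22 to 0.08), where 5.43% of all names were lower. Between ysE and mesoderm, MIRb (0.27, adjusted p = 0.014) and MIRc (0.26, adjusted p = 0.031) were higher in ysE, where 5.34% of all names were. Without the 10 elements with most reads of each name, in contrast, all 8 names were called in both comparisons, at log2 -0.37 to -1.03 in EBs against ysE and 0.43 to 0.93 in ysE against mesoderm. Of all names, 17.1% were then lower in EBs and 14.2% higher in ysE.

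**Figure D2:**
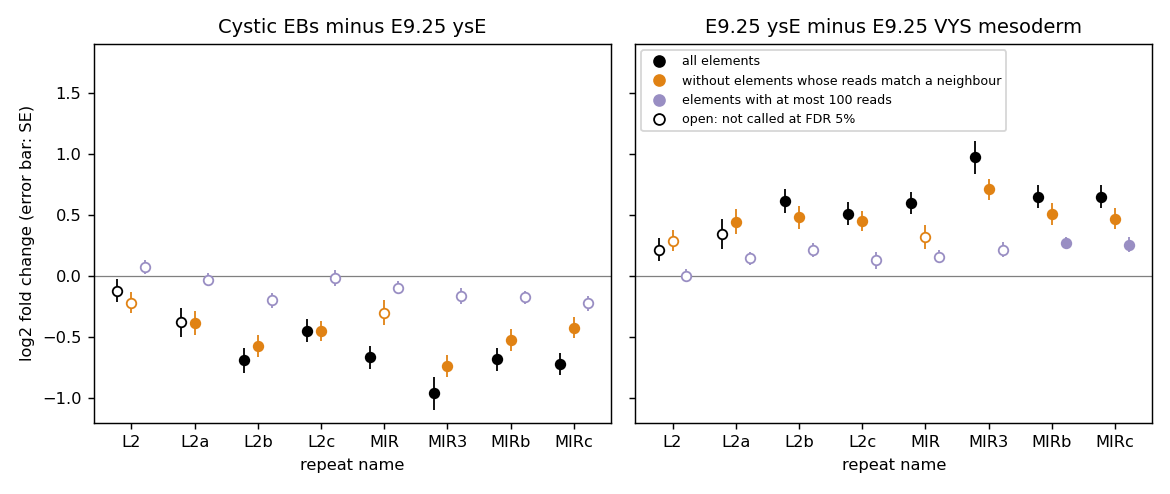
Log2 fold change (vertical axis, error bars: SE) of the 8 names for cystic EBs minus ysE (left) and ysE minus VYS mesoderm (right), over all elements, without elements whose reads match a neighbour, and over elements with at most 100 reads; filled points passed FDR 5%. MIR3 is farthest from 0 over all elements, at -0.96 and 0.97, and the values of elements with at most 100 reads lie nearest to 0.

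At the level of single elements, 5057 members (1890 L2 and 3167 MIR) passed the filter on low counts among 238744 elements tested. Between EBs and ysE, edgeR called 118 members higher and 403 lower in EBs, 10.3% of the members tested against 12.1% of all elements. By direction, 2.33% of the members were higher against 3.38% of all, and 7.97% were lower against 8.68% of all, so single members were called at about the rate of other repeats. Of the 403 lower members, 212 (52.6%) had a matching neighbour, against 11 of the 118 higher ones (9.32%) and 969 of the 4536 not called (21.4%). A match needs at least 100 reads in both elements, which those high in ysE, with the deepest library, reach more easily. This contrast is therefore partly fixed by the definition. Between ysE and mesoderm, 44 members were higher and 11 lower in ysE, 1.09% of the members against 1.26% of all elements (0.978% higher and 0.286% lower). Between EBs and mesoderm, 0 members and 0 of all elements were called, while 17.7% of members and 17.5% of all had an unadjusted p under 0.05. Calls of single members were lost with any 1 library left out, a fit that leaves 1 group with a single library. The number of all elements called in these fits is not given here.

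The elements named here are those with the largest change in each direction that had at least 50 reads in every library of the higher group and did not overlap. Coordinates are mm10 and genes are those of RefSeq. Folds against a group without reads were computed against a floor of 3 reads per library and are lower bounds. An L2 element at chr7:59768514-59768543, in Snhg14, a long noncoding transcript that hosts clusters of small nucleolar RNAs, had 172 and 133 reads in EBs, 0 and 0 in ysE, and 7 and 5 in the mesoderm. It was at least 56.4-fold higher in EBs than in ysE (edgeR, adjusted p = 0.015). An L2 element at chr7:59745800-59745829 in the same gene had 141 and 152 reads in EBs, 0 and 0 in ysE, and 6 and 1 in the mesoderm, and was at least 54.4-fold higher (edgeR, adjusted p = 0.031). Neither had a matching neighbour, and both had reads almost only in EBs.

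The largest changes toward ysE were in MIR elements near genes. The MIR at chr6:57539834-57540000 lies 4282 bp from Ppm1k, which encodes a phosphatase of branched-chain amino acid breakdown, and had 0 and 0 reads in EBs, 1246 and 2291 in ysE, and 0 and 1 in the mesoderm. The MIR at chr6:57540314-57540419, 4762 bp from Ppm1k, had the same 1246 and 2291 reads in ysE and 0 in the other 4 libraries. Both belong to 1 run of 7 matching repeats, so they are not independent. Each was at least 493-fold higher in ysE than in EBs (edgeR, adjusted p = 0.016 and 0.015). Against the mesoderm, the largest changes were in the MIR at chr4:135989938-135990015 and the MIRc at chr4:135989018-135989150, 2694 and 1774 bp from Pithd1. Both had 2134 and 3377 reads in ysE and 0 and 0 in the mesoderm, with 39 to 42 in the EB libraries, and both were at least 748-fold higher in ysE (edgeR, adjusted p = 0.020). They lie in 1 run of 13 matching repeats.

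In the opposite direction, the MIR at chr5:91863768-91863874, in Gm36357, had 126 and 181 reads in the mesoderm, 0 and 0 in ysE, and 45 and 65 in EBs. It was at least 59.3-fold higher in the mesoderm than in ysE (edgeR, adjusted p = 0.044). The MIR at chr9:108192614-108192735, 2195 bp from Bsn, which encodes a scaffold of presynaptic terminals, had 218 and 338 reads in the mesoderm, 0 and 1 in ysE, and 105 and 119 in EBs (edgeR, adjusted p = 0.043). Its ratio of 683 had a counting interval of 122 to 27031. Both lie in runs of matching repeats (6 and 12), and in both EBs were between the other groups. Each of these 8 calls was lost in 7 of 9 alternative settings, with adjusted p from 0.017 to 0.23 over them by edgeR.

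The members with the most reads were not confined to 1 group. The L2a at chr17:36236253-36236347, 19326 bp from Rpp21, a subunit gene of RNase P, had 961 and 933 reads in EBs, 800 and 2420 in ysE, and 1787 and 1898 in the mesoderm. The MIR at chr13:23733503-23733659, 5148 bp from the linker histone gene H1f2, had 890 and 937, 717 and 1752, and 1345 and 1921. The MIRb at chr14:52036491-52036666, 382 bp from the olfactory receptor gene Olfr221, had 206 and 296, 1746 and 3057, and 1047 and 1338. In CPM, the L2a element had 8.82 and 9.15 in EBs, 8.39 and 15.9 in ysE and 18.3 in both mesoderm libraries, and the MIRb element 1.89 and 2.90, 18.3 and 20.1, and 10.7 and 12.9. Only for the MIRb did the 3 groups not overlap. All 3 elements lie in runs of matching repeats (19 for the L2a, 12 for the MIR and 3 for the MIRb), so neighbours had nearly the same read numbers. Whether the same reads were counted in each was not tested.

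Distance to genes separated the tissues. Members within 5 kb of a RefSeq gene (15789 elements) had 203 and 200.3 CPM per Mb in EBs, 435 and 491 in ysE, and 220.3 and 228 in the mesoderm. Those inside a gene (20946) had 229 and 249 in EBs, 323 and 351 in ysE, and 243 and 231 in the mesoderm. Those more than 100 kb from any gene (12966) had 150.1 and 144 in EBs, 81.8 and 71.3 in ysE, and 118 and 124 in the mesoderm. The ysE libraries were thus the highest in and near genes and the lowest far from them. Between 20 and 100 kb, all 6 libraries lay between 78.1 and 88.0.

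The order depended on which elements were summed. Both choices below take out more of the ysE reads than of the others, so the changes in order are partly fixed by them. Without the elements whose reads match a neighbour, members within 5 kb had 167 and 163 CPM per Mb in EBs, 226 and 222 in ysE, and 151 and 153 in the mesoderm, and those over 100 kb away had 122 and 120.3, 64.8 and 54.9, and 96.9 and 105. Inside genes the values were then 202 and 218, 226 and 222, and 196 and 187, and for L2 elements there EB d15 (203) lay above both ysE libraries (200.1 and 196). Among elements with at most 100 reads, ysE was not the highest near genes: within 5 kb they had 119 and 112 CPM per Mb in EBs, 94.8 and 86.2 in ysE, and 90.1 and 95.5 in the mesoderm. Inside genes they had 112 in both EB libraries, 77.3 and 70.7 in ysE, and 98.1 and 94.4 in the mesoderm. Over all elements, the ratio of ysE to EBs within 5 kb was 2.57 for MIR and 1.88 for L2, and beyond 100 kb it was 0.53 and 0.51. Over all repeats outside RNA genes these ratios were 1.39 and 0.64, so that the direction was not particular to L2 and MIR. Elements of 1 transcript can share reads, and no test was run across distance classes.

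**Figure D3:**
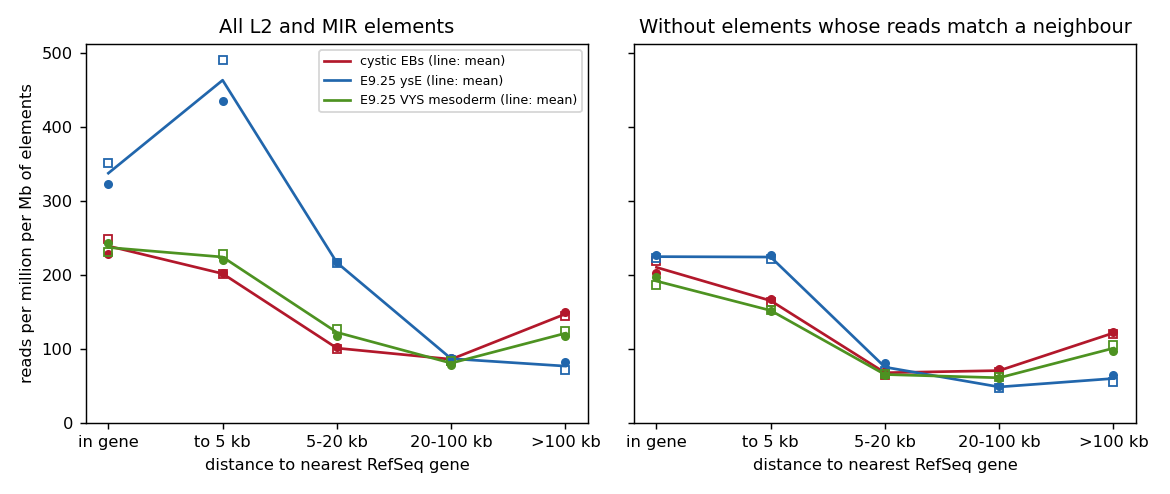
CPM per Mb of L2 and MIR elements (vertical axis) by distance to the nearest RefSeq gene (horizontal axis), for all elements (left) and without elements whose reads match a neighbour (right); points are libraries and lines are group means. ysE is highest within 5 kb, at 435 and 491, and lowest beyond 100 kb, at 81.8 and 71.3.

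CpG methylation of L2 and MIR elements was lowest in ysE, intermediate in fetal liver and highest in cystic EBs. The libraries held 6695942 to 11554658 reads at CpGs with a median of 1 read per CpG call, and reads were summed over the 16 chromosomes with calls in all 6 libraries. Over all members, methylation was 62.2% (CxF) and 54.7% (FxC) in ysE, 76.5% and 78.8% in liver, against 89.7% and 85.8% in EBs. The means were 58.4% ± 5.34 (SD, n = 2), 77.7% ± 1.62 (SD, n = 2) and 87.8% ± 2.78 (SD, n = 2). The 3 tissues did not overlap. Over all listed elements, methylation was 63.7% and 56.3% in ysE, 75.4% and 77.8% in liver, against 84.9% and 80.1% in EBs.

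The 8 names differed little within a library. Among the MIRs, MIR was at 64.1% and 55.8% in ysE, 77.5% and 80.2% in liver, against 90.6% and 86.8% in EBs. MIR3 was at 60.0% and 54.5%, 75.5% and 76.2%, and 87.4% and 83.4%. MIRb was at 62.6% and 56.4%, 77.2% and 80.7%, and 90.6% and 87.3%, and MIRc at 62.2% and 54.4%, 75.2% and 77.8%, and 89.3% and 86.4%. MIR3 was the lowest of the 4 MIR names in 4 libraries and MIRc in the other 2, ysE FxC and liver CxF.

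Among the L2 names, L2 was at 60.8% and 51.3% in ysE, 77.5% and 77.7% in liver, against 89.6% and 84.6% in EBs. L2a was at 61.9% and 54.0%, 76.1% and 77.5%, and 89.2% and 84.5%. L2b was at 62.3% and 55.6%, 74.2% and 77.2%, and 88.7% and 84.7%, and L2c at 60.6% and 54.1%, 75.0% and 78.6%, and 89.6% and 85.8%. In each of the 8 names both ysE libraries were below both liver libraries, and both liver libraries were below both EB libraries. All listed elements followed the same order, so it was not particular to the members. The share of all names with this order is not given here. The values rest on 1679 to 13041 reads per name and library, and intervals drawn for them cover counting error only.

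**Figure D4:**
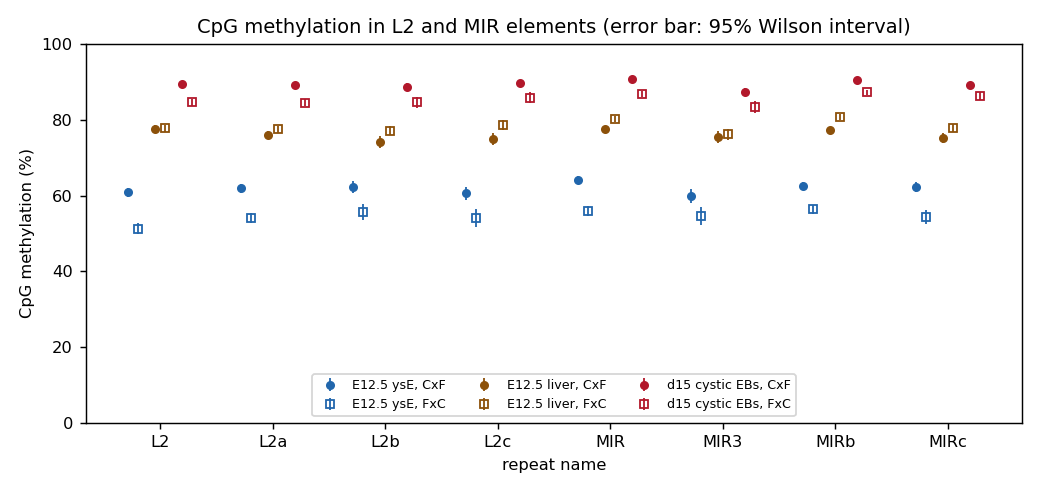
CpG methylation in percent (vertical axis) of the 8 names (horizontal axis) in each of 6 WGBS libraries, with 95% Wilson intervals for counting error. Within each name the ysE libraries lie lowest (51.3% to 64.1%), the liver libraries between (74.2% to 80.7%) and the cystic EB libraries highest (83.4% to 90.6%).

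Liver exceeded ysE by 16.7 (L2b) to 21.6 (L2) percentage points, and limma on the log2 ratio of methylated to unmethylated reads called all 8 names (log2 1.11 to 1.44, SE 0.39). So were 91.5% of the 668 names tested, with a median of 1.23. Cystic EBs exceeded ysE by 27.7 (L2b) to 31.0 (L2) points, and 8 of 8 names were called (log2 2.14 to 2.47), as were 97.3% of all, with a median of 2.03. Cystic EBs exceeded liver by 9.46 (L2) to 11.3 (MIRc) points, and 7 of 8 names were called (log2 0.98 to 1.15), as were 31.9% of all names in that direction, with a median of 0.70. MIR3 (log2 0.91, limma adjusted p = 0.061) did not pass, but was called by edgeR on methylated and unmethylated reads (adjusted p = 0.046). Shifts of a whole library are shared by all names, so that these p-values are too small. Over all listed elements the differences had the same direction, at 16.6, 22.5 and 5.92 points, against 19.2, 29.3 and 10.1 over the members.

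After each library was centred on its median over names, 0 of 8 members were called by limma in any of the 3 comparisons, with 0, 5 and 2 names at an unadjusted p under 0.05. Of all names, 0%, 21% and 0% were then called. A difference of the members from other repeats in tissue response was thus not detectable in this test. With 1 library left out, a tissue held a single library. Calls were then lost in EBs against liver and in liver against ysE, but not in EBs against ysE. In each comparison 0 of 48 results changed sign. How many calls all names lost in these fits is not given here.

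Some chromosomes stood apart in single libraries. In ysE CxF, members on chromosome 4 were 47.5% methylated (7511 reads, 95% Wilson interval 46.4% to 48.6%), against 55.5% in ysE FxC and 62.5% to 69.5% on the other chromosomes of ysE CxF. In liver CxF, members on chromosome 6 were 88.6% methylated from 937 reads. All listed elements of chromosome 4 were also low in ysE CxF, at 51.8%, against 64.0% to 68.0% elsewhere. On 16 of 16 chromosomes, both liver and both EB libraries lay above both ysE libraries. Without chromosomes 4 and 6, members were at 65.0% and 54.5% in ysE, 76.6% and 78.8% in liver, against 89.7% and 85.9% in EBs, and 8, 8 and 5 names were called in the 3 comparisons, as were 80.5%, 96.7% and 21.4% of all names.

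The methylation of MIR elements was close to that of the DNA beside them. CpGs of the flanks were taken only outside RefSeq genes and listed repeats, while elements inside genes were kept. The 2 sides thus differ in gene content, and small differences below cannot be read as a trait of the elements. From the 1 kb on either side, MIR elements differed by -0.13 and -0.24 points in ysE, 0.41 and 0.71 in liver, against 1.26 and 1.56 in EBs. L2 elements differed by -1.54 and -1.91 points in ysE, -0.35 and -1.45 in liver, against 0.79 and -0.42 in EBs. Among the other old classes, the differences were -2.50 to -0.21 points for hAT-Charlie, -1.11 to 1.96 for CR1, 1.31 to 2.85 for TcMar-Tigger and -6.17 to -3.70 for ERVL-MaLR. Alu elements, which in mouse are B1 SINEs, were below their flanks by 8.86 to 21.8 points and B2 elements by 3.70 to 13.7 points. No test was run on these differences.

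In ysE, members far from genes were less methylated than those near genes, while in liver and EBs the values near and far were within 4 points. Within 5 kb of a gene it was 64.5% and 60.7% in ysE, 76.7% and 79.9% in liver, against 88.2% and 84.4% in EBs. Beyond 100 kb it was 49.1% and 38.5% in ysE, 76.2% and 76.1% in liver, against 90.9% and 86.6% in EBs. Both ysE libraries were lower far from genes, by 15.4 and 22.1 points, while liver differed by -0.48 and -3.77 points and EBs by 2.70 and 2.19. Over all listed elements the ysE libraries differed by -7.74 and -8.28 points, and over the other classes set beside the members by -9.76 to -24.4 points. Far from genes, members thus had both low methylation at E12.5 and a low level of reads at E9.25 in ysE, measured in different strains.

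Members that overlap an H3K4me3 peak of E12.5 VYS, a mark of active promoters, were the least methylated. Values of other repeats by distance to a peak are not given here, so this cannot be read as particular to the members. The 775 such elements on the 16 chromosomes were at 32.9% and 26.1% in ysE, 45.9% and 55.5% in liver, against 57.1% and 54.6% in EBs. Members up to 1 kb from a peak were already at 68.1% and 61.8%, 80.2% and 82.2%, and 88.6% and 84.9%. Members over 100 kb from a peak were at 55.3% and 46.3% in ysE, 75.6% and 77.5% in liver, against 90.5% and 87.0% in EBs. The order of ysE, liver and EBs was kept far from peaks, but in the overlapping elements liver FxC lay above EB FxC and the libraries of liver and EBs overlapped. In peaks, the means in liver and EBs were 58.2% and 54.8% for L2, and 46.9% and 56.3% for MIR elements. For L2, the EB libraries (54.3% and 55.4%) lay between those of liver (52.1% and 64.4%), from 169 to 210 reads each. For MIR, liver was at 42.5% and 51.3% and EBs at 58.7% and 54.0%, from 265 to 398 reads each.

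**Figure D5:**
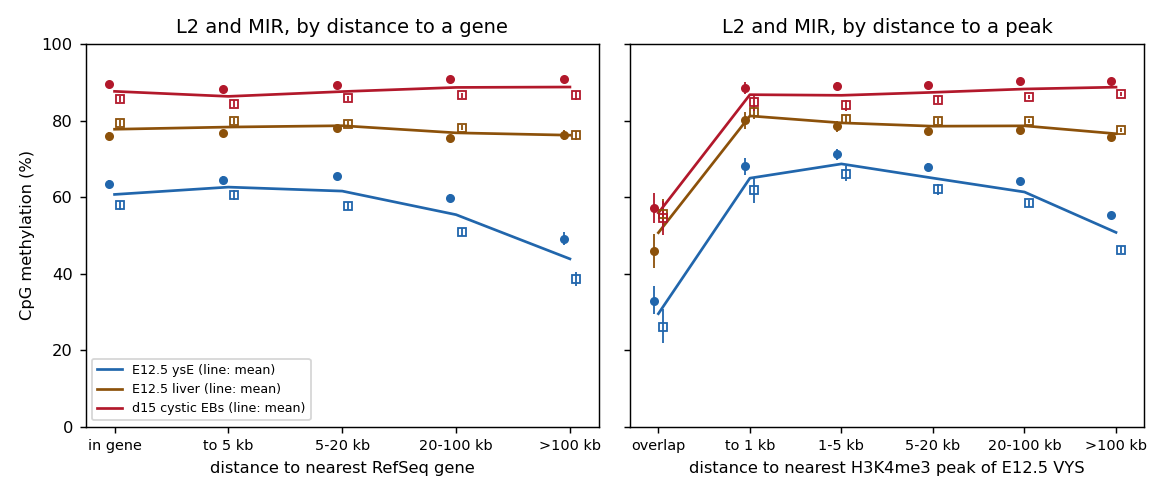
CpG methylation in percent (vertical axis) of L2 and MIR elements by distance to the nearest RefSeq gene (left) and H3K4me3 peak (right); filled circles are CxF and open squares FxC libraries with 95% Wilson intervals, lines are tissue means. By distance to a gene, the ysE values are lowest beyond 100 kb, at 49.1% and 38.5%, and all tissues are lowest in elements that overlap a peak.

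Single elements could be read only in part, since 1.77% to 4.67% of the members had at least 5 CpG reads in a library. The median such element was 76.5% and 66.7% methylated in ysE, 88.9% and 92.5% in liver, and 100% in both EB libraries. Elements at or below 20% methylation made up 14.3% and 19.1% in ysE, 5.26% and 4.24% in liver, against 1.52% and 2.87% in EBs. Elements at or above 80% made up 48.8% and 43.6%, 67.2% and 70.3%, and 87.0% and 80.8%. The order of the tissues among single elements was that of the sums by name.

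Reads and methylation were also set side by side for the elements called between EBs and ysE, although they come from other stages, strains and clones. Of the 403 elements with more reads in ysE, 354 lay on the 16 chromosomes and were at 62.7% and 54.6% in E12.5 ysE, 77.5% and 82.2% in liver, and 83.8% and 83.5% in EBs. Over all members ysE was at 62.2% and 54.7% and EBs at 89.7% and 85.8%. In the 354 elements EBs exceeded liver by 3.82 points, against 10.1 over all members. The 3995 members on these chromosomes that were tested but not called were at 87.5% and 82.3% in EBs, and there EBs exceeded liver by 6.88 points. Of the 118 with more reads in EBs, 107 lay there, had only 24 to 57 CpG reads per library and were at 78.4% and 56.0%, 79.2% and 66.7%, and 98.2% and 90.7%. No test was run on these small sums.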

How the data were processed

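RNA was sequenced from RiboZero-treated, strand-specific (dUTP) libraries, and reads were aligned by the authors to mm10 with GSNAP (version 2012-12-12). The authors deposited raw counts of reads per RepeatMasker element for 6 libraries, and counts and RPKM per RefSeq transcript. Whether reads that map to several places or span elements were counted more than once is not stated in the sources used here. For WGBS, the authors deposited, for each CpG and strand, the methylated percent and the number of reads, called with BisSNP at low coverage settings. For H3K4me3, the authors deposited peaks with a score, called with MACS 1.4.2 on pooled litters. The deposited repeat table also gives an alignment score per element. Although the repeat table is labelled intergenic, 21.1% of the members overlapped genes of RefSeq (GRCm38.p6). Exon-part counts were not used here, and repeat reads of the other RNA libraries were not analysed here. All data columns used carried a sample of the labels.

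Reads were summed by repeat name and tested with edgeR 4.0.16 (R 4.3.3, glmQLFit and glmQLFTest, filterByExpr, TMM factors 0.809 to 1.27, 3 groups in 1 fit), and likewise by element. Adjusted p-values are Benjamini-Hochberg values over all names or all elements tested, called at FDR 5%. Methylated (M) and unmethylated (U) reads were rebuilt from percent and read number, summed by name, and tested as log2((M + 1)/(U + 1)) with limma 3.58.1 for names with at least 100 CpG reads in every library. Shares have 95% Wilson intervals, which cover counting error only. DESeq2 1.42.0, other scaling, filters, coverage minimums, centring, a replicate block and leaving out each library were alternatives. In the RNA block both EB libraries counted as B, so the block was estimated from ysE and mesoderm only. Alternatives without elements that match a neighbour, with elements of at most 100 reads, and without chromosomes 4 and 6 were added after the data were seen. Single elements were named by rule: in each comparison, up to 2 per direction with the largest change past FDR 5%, groups that did not overlap and at least 50 reads in every library of the higher group, plus the 3 with the most reads. The members, lists and classes were chosen with earlier results of these data known. Both tests were tested on simulated data. For single elements this was done at a spread below the fitted one and for elements with at least 200 reads, because the test recovered few known changes at the fitted spread. It therefore gives no measure of the element test at the spread of these data. The numbers of changes recovered and of false calls are not given here for either test.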

Additional observations from a re-analysis of the deposited data

How the results depend on the processing

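The depth limits single sites, with a median of 1 read per CpG call, and each group had only 2 libraries. Most results by name, called or not, kept their direction and side of FDR 5% while all libraries were used. Results kept between EBs and mesoderm, where no name was called, are names again not called and of the same sign. For 8 members under 10 alternatives that kept all libraries, 65, 69 and 69 of 80 results were kept in the RNA comparisons (EBs against ysE, EBs against mesoderm, ysE against mesoderm), and 72, 72 and 53 of 80 in the methylation comparisons (liver against ysE, EBs against ysE, EBs against liver).

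For reads by name, cystic EBs against E9.25 ysE, the 6 calls became 0 in elements with at most 100 reads (4 at an unadjusted p under 0.05), where L2 reversed to 0.075. With 1 library left out, calls were lost but no name changed sign. The limit of 100 reads tends to remove elements that are high in ysE, so the changes under that limit are partly fixed by it and say nothing on the stability of the calls. For E9.25 ysE against E9.25 VYS mesoderm, the 6 calls became 2 under the same limit. Here too, calls were lost but no name changed sign with 1 library left out. For cystic EBs against E9.25 VYS mesoderm, where no name was called, signs turned around 0: MIR3 was at -0.070 without the 10 top elements of each name and -0.092 with the replicate block. In that block both EB libraries counted as B, so it shifted the EB comparisons toward the B libraries of ysE and mesoderm. Without matching neighbours L2a was at 0.064, MIR at 0.020, MIR3 at -0.026 and MIRc at 0.049, and in elements with at most 100 reads L2a was at 0.12, L2b at 0.016, MIR at 0.067, MIRb at 0.10 and MIRc at 0.038. With 1 library left out, L2a ran from -0.087 to 0.047, MIR3 from -0.028 to 0.095 and MIRb from -0.045 to 0.0080. Over all names, DESeq2 called 69 higher and 61 lower between EBs and mesoderm against 18 and 18 by edgeR, and 227 and 166 between ysE and mesoderm against 128 and 114. Scaling to RefSeq transcripts gave 18 and 31 between EBs and mesoderm, 82 and 270 between EBs and ysE (201 and 204 before), and 177 and 44 between ysE and mesoderm.

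For methylation by name, centring gave 0 calls in each comparison (0, 5 and 2 members at an unadjusted p under 0.05), and between liver and ysE L2a was then at -0.0067, L2b at -0.16, MIR3 at -0.042 and MIRc at -0.052. Between EBs and liver the 7 calls became 0 with names of at least 20 reads (7 at an unadjusted p under 0.05) and 0 with CpG calls of at least 3 reads (8 at an unadjusted p under 0.05). The shares of all names called in these settings are not given here, so the losses cannot be read as a trait of the members. With 1 library left out, no member changed sign in any methylation comparison, and calls were lost in liver against ysE and in EBs against liver.

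For reads by element, calls of members were lost with any 1 library left out. Under the replicate block edgeR called 0 members, and 27 between ysE and mesoderm with a minimum of 50 reads. The shares of all elements called in these settings are not given here, so the counts cannot be read as a trait of the members. Under the block, 1327 members had an unadjusted p under 0.05 in reads by element, cystic EBs against E9.25 ysE, and 987 in reads by element, E9.25 ysE against E9.25 VYS mesoderm. Deviations of libraries with equal names from their group means correlated at r = 0.0092 for RNA (ysE and mesoderm) and -0.054 to 0.059 for methylation. With 2 libraries per group, such values cannot show whether samples were paired, for example by a shared litter. By name, the replicate block gave 6, 0 and 6 calls for RNA and 8, 8 and 8 for methylation. Shares of all names called under that block are not given here. The cause of these changes was not tested.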
